A study of Mus musculus with 40 samples.

Results

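The complement and coagulation genes examined here were 39 genes of plasma proteins that liver makes, 19 of the complement system and 20 of the clotting, contact and fibrinolytic systems. They were looked up in lists of chromatin immunoprecipitation sequencing (ChIP-seq) peaks for the corepressors NCoR and SMRT and the deacetylase HDAC3. A peak belonged to a gene when that gene held the nearest transcription start site (TSS) among the 21851 protein-coding genes with a start site on the mouse mm10 build. This gave 212 of 60254 peaks in all, made up of 122 NCoR, 43 SMRT and 47 HDAC3 peaks. The genes were grouped by function, by a choice made with earlier results of these data known, and of 49 other genes of the same pathways 16 had no peak of any list.

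The series held 40 samples of mouse liver ChIP-seq, and the 9 behind these 3 lists were from ad libitum fed C57BL/6 males of genotype Bcl6 fl/fl, with 3 animals a list. These are the controls of the study, whose Bcl6 gene carries loxP sites but was not deleted because they lack the Albumin-cre transgene. Each list was called on its 3 libraries together and gave positions alone, so no value had an error between animals, and the intervals given are exact 95% binomial intervals that cover counting error only. The lists held 35138 NCoR, 10654 SMRT and 14462 HDAC3 peaks, and their read depth is not given in the sources used here. Whole liver holds several cell types, and positions alone do not say in which of them a site was bound. The other 31 samples were not analysed here.

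Complement is a cascade of plasma proteases that starts when recognition proteins meet a microbe or an antibody, cuts C3 through enzymes called convertases, and ends in a pore built from the terminal components. Coagulation runs through a parallel set of protease precursors to thrombin, which turns fibrinogen into fibrin, while antithrombin and its kin restrain it and plasmin dissolves the clot. Hepatocytes secrete most of these proteins, and HNF1, HNF4 and C/EBP factors are well known activators of such genes. SMRT and NCoR are related scaffolds that hold HDAC3 and bring it to DNA-bound repressors and nuclear receptors.

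An NCoR peak was assigned to every member, and a site bound by all 3 cofactors to most of them. A shared site here means an NCoR peak with a SMRT and an HDAC3 peak centred within 200 bp, and an NCoR-only site means one with neither. At least 1 NCoR peak lay at 39 of the 39 genes (100%, 91.0 to 100), where 49.2% of all protein-coding genes had one. SMRT was at 29 of 39 genes, against 23.7% of all genes, and HDAC3 was also at 29, against 29.3%. A shared site was present at 25 of 39 genes (64.1%, 47.2 to 78.8), against 21.0% of all genes. An NCoR-only site was present at 33 of 39, against 40.6%.

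The length of DNA over which a gene holds the nearest start site, called its territory, sets how many peaks it can collect. The members had territories of 14.7 to 508.5 kb with a median of 42.5 kb, close to the 47.3 kb of all protein-coding genes. When every member was given the share of genes of its own territory decile, 18.6 genes with an NCoR peak and 7.45 with a shared site were obtained, fewer than the 39 and 25 observed. NCoR peaks numbered 46.8 per Mb of territory at the members and 12.9 per Mb over all genes, and shared sites 12.3 and 3.21 per Mb. All protein-coding genes include many that liver does not use, and the lists hold no expression values to sort them by.

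**Figure D1:**
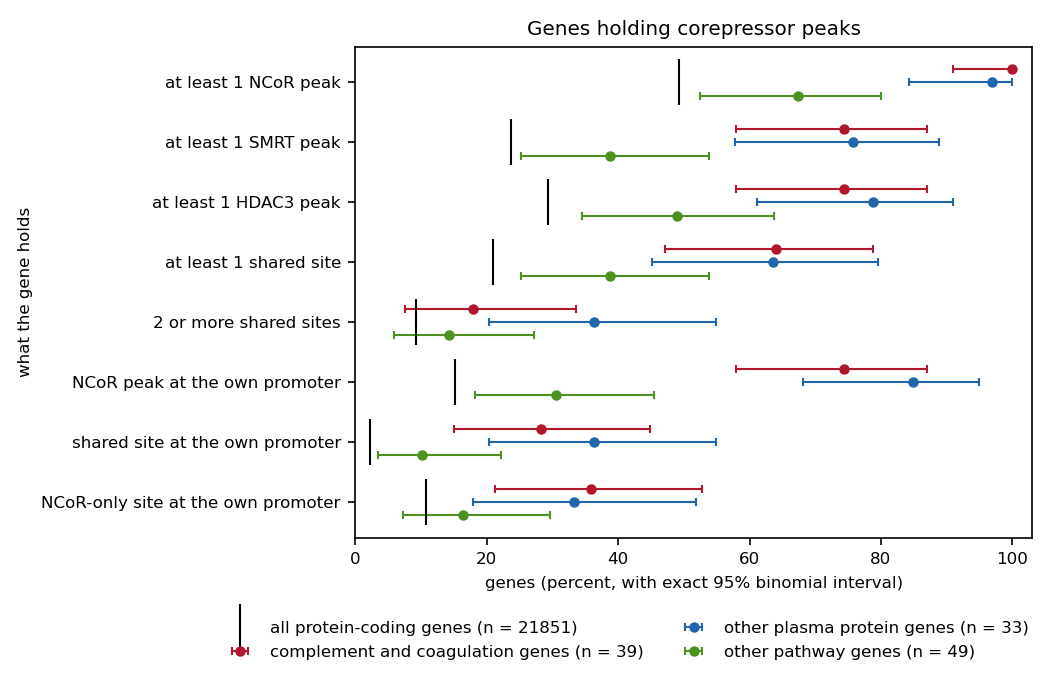
Each row is a property a gene can have, and the horizontal axis is the percent of genes with it. Points with exact 95% binomial intervals stand for the 39 complement and coagulation genes (red), 33 other plasma protein genes (blue) and 49 other genes of the same pathways (green), and the black tick is the share of all 21851 protein-coding genes. The red and blue points lie near each other in most rows, and the largest gap to the black tick is for an NCoR peak at the own promoter.

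A set of 33 other plasma protein genes of liver, such as those for carrier and acute phase proteins, gave counts of the same order. NCoR was at 32 of them, a shared site at 21 (63.6%, 45.1 to 79.6), and 12 held 2 or more shared sites, where 7 of the 39 members did (17.9%, 7.54 to 33.5, against 9.29% of all genes). The intervals of these shares overlapped between the lists. Per Mb of territory these 33 genes held 64.8 NCoR peaks and 22.9 shared sites, more than the 46.8 and 12.3 of the members. Gc, which encodes the vitamin D binding protein, had 4 shared sites, and Alb and Ambp, for albumin and the bikunin precursor, had 3 each. No test between the lists was made.

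The sequences at promoter sites are shown first, because 11 members had a shared site within their own promoter, taken as 1000 bp upstream to 100 bp downstream of one of the gene's start sites. In each window of 150 bases below, read 5′ to 3′ on the coding strand of the gene from the mm10 reference, capitals mark a match to one of the motifs searched. The first set is of complement genes, C3 (chr17:57228238-57228387, minus strand, 251 to 102 bases upstream of the start site), C4b (chr17:34743883-34744032, minus strand), C2 (chr17:34882101-34882250, minus strand, at an internal start site) and C9 (chr15:6445153-6445302, plus strand, 174 to 25 bases upstream).
C3: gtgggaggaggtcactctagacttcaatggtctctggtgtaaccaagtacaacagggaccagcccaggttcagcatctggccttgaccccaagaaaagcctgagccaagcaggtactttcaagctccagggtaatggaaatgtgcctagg
C4b: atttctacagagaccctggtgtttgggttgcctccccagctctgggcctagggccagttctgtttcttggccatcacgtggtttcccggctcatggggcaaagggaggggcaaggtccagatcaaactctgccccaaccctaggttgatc
C2: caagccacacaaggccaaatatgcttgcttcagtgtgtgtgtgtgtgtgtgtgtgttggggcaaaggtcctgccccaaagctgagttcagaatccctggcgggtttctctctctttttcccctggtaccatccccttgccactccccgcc
C9: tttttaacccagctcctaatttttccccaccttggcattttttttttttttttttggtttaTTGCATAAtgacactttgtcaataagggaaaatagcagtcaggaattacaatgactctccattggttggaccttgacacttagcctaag

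The second set is of genes of the contact and fibrinolytic systems, Kng1 (chr16:23058100-23058249, plus strand), Kng2 (chr16:23029102-23029251, minus strand) and Plg (chr17:12378458-12378607, plus strand), each running from 150 bases upstream to the base before the start site.
Kng1: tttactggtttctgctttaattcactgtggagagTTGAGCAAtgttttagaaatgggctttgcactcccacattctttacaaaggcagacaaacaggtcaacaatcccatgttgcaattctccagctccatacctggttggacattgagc
Kng2: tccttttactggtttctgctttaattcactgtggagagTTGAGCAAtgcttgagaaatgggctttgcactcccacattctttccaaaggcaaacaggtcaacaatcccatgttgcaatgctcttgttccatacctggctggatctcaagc
Plg: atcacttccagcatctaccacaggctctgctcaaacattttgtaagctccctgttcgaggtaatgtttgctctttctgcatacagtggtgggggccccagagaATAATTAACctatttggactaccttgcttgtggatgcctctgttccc

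The third set is of 2 fibrinogen genes, chosen after their values were seen because their promoters carried NCoR with only 1 of the partners, Fga (chr3:83025926-83026075, plus strand) with HDAC3 and Fgb (chr3:83049864-83050013, minus strand) with SMRT, again over the 150 bases before the start site.
Fga: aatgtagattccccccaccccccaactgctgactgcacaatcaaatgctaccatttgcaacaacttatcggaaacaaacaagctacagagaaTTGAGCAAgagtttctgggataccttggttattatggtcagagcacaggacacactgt
Fgb: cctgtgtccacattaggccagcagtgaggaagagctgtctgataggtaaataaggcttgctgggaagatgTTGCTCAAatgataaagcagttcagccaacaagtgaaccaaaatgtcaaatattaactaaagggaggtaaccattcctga

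Kng1 and Kng2 are paralogues, and their windows were alike, with 134 identical bases in 154 aligned columns (87.0%). Both held the letters TTGAGCAA, a C/EBP match, at 116 to 109 and at 112 to 105 bases upstream. C9 held TTGCATAA and Fgb TTGCTCAA, which match the C/EBP string on the opposite strand, and Fga held TTGAGCAA at 58 to 51 bases upstream. Plg held ATAATTAAC, an HNF1 match, at 47 to 39 bases upstream. The windows of C3, C4b and C2 had no match to the strings searched.

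The promoters of the members were occupied far more often than those of genes at large. NCoR lay at the own promoter of 29 of 39 genes (74.4%, 57.9 to 87.0), where 15.2% of all genes had it there and the territory deciles gave 6.00 genes. A shared site lay there at 11 genes (28.2%, 15.0 to 44.9), against 2.20% of all genes and 0.885 genes from the deciles. An NCoR-only site lay there at 14 genes (35.9%, 21.2 to 52.8), against 10.7% of all genes. Of the 33 other plasma protein genes, 28 had NCoR and 12 a shared site at the own promoter.

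These promoter peaks sat close to the start site. The promoter was counted from 1000 bp upstream to only 100 bp downstream. A lean to the upstream side was thus partly set by that definition. The 34 NCoR peaks at the members' promoters had a median distance of -75.5 bp (-769 to 70), and 25 of them (73.5%, 55.6 to 87.1) were centred in the 250 bp upstream. Over the 3510 promoter NCoR peaks of all genes the share was 53.8% (52.2 to 55.5), with a median of -98 bp, and at the other plasma protein genes it was 27 of 29 (93.1%). The nearest NCoR peak lay a median of 109 bp from the start site of a member, against 2378 bp for all genes with a peak. Within 10 kb of the start site were 91 of the 122 peaks (74.6%, 65.9 to 82.0), against 37.2% of all NCoR peaks. At the other plasma protein genes the median distance was 96.5 bp and the share within 10 kb was 71.4%, both near those of the members.

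**Figure D2:**
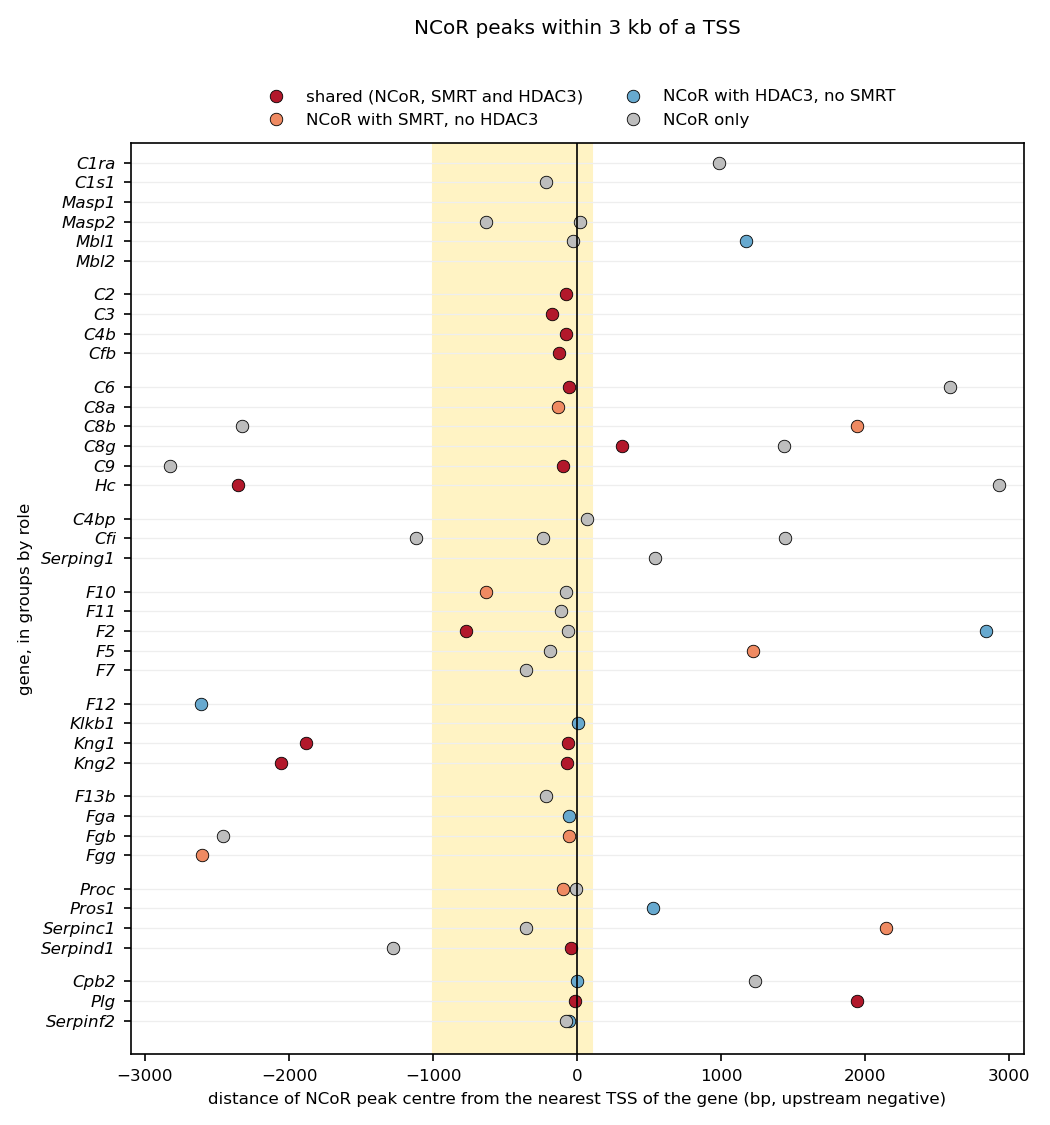
The horizontal axis is the distance in bp from the gene's nearest start site to the centre of each NCoR peak (upstream negative), with 1 line for each of the 39 genes and the promoter from 1000 bp upstream to 100 bp downstream shaded. Colours give the partners found within 200 bp, and peaks farther than 3 kb are not drawn. The red points of C2, C3, C4b and Cfb, which are shared sites, fall in the shaded band just upstream of 0.

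NCoR peaks at members carried all combinations of partners. Of 122 NCoR peaks, 32 were shared sites (26.2%, 18.7 to 35.0), 65 were NCoR-only (53.3%, 44.0 to 62.4), 15 had HDAC3 without SMRT (12.3%, 7.05 to 19.5) and 10 had SMRT without HDAC3 (8.20%, 4.0 to 14.6). Over all 35138 NCoR peaks the shares were 24.9%, 56.1%, 14.8% and 4.16%. Each of these lay inside the members' interval, that of SMRT without HDAC3 just above its lower end. Of the 43 SMRT peaks at members 42 had NCoR in reach, and all 47 HDAC3 peaks did. Most peaks of both lists did so over the genome too. Of all 10654 SMRT peaks 81.9% were shared and 13.8% had NCoR without HDAC3. Of all 14462 HDAC3 peaks 60.4% were shared and 36.0% had NCoR without SMRT.

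Partner centres at members mostly lay well within the 200 bp limit. At the 32 shared sites the SMRT centre was a median of 36.5 bp from the NCoR centre (121 at most) and the HDAC3 centre 19.5 bp (101 at most). The pairs nearest the limit were SMRT at 148 bp from an NCoR peak of Serpinc1 and HDAC3 at 171 bp at Mbl2 on the inside, and SMRT at 220 bp at Serpind1 on the outside.

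The own promoter held a larger share of the members' shared sites than of shared sites over the genome, and no difference between shared and NCoR-only sites was detectable within the members. Of the members' shared sites 11 of 32 (34.4%, 18.6 to 53.2) were at the own promoter, and of their NCoR-only sites 15 of 65 (23.1%, 13.5 to 35.2). The odds ratio was 1.75, and the two-sided p by Fisher's exact test was 0.329. Over all NCoR peaks the shares were 5.63% (5.16 to 6.13) of 8739 shared sites and 12.2% (11.7 to 12.6) of 19725 NCoR-only sites, where the odds ratio was 0.431 and the same exact test gave p = 1.19e-69. Peaks are not replicates, so both values cover counting error, and the difference between the odds ratios was not tested. The high promoter share was not particular to members. The other plasma protein genes had 42 shared sites, and 12 of those 33 genes held one at the own promoter. Of the other shared sites of members, 6 were in the gene's own introns, 5 upstream and 5 downstream between genes, 3 within another gene and 2 in the gene's own untranslated regions.

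No difference between complement and coagulation genes in how many had a shared site was detectable with these numbers. These were 14 of 19 complement genes (73.7%, 48.8 to 90.9) and 11 of 20 coagulation genes (55.0%, 31.5 to 76.9), for which Fisher's exact test gave a two-sided p of 0.32 at an odds ratio of 2.29. The complement genes had 51 NCoR peaks with 15 shared sites, and the coagulation genes 71 with 17. These counts are not set to territory, whose median was 28.1 kb for complement and 50.1 kb for coagulation genes. Only 1 complement gene, C4b, had 2 shared sites, and 6 coagulation genes did, which are F11, Fgg, Plg, Kng1, Kng2 and Cpb2.

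**Figure D3:**
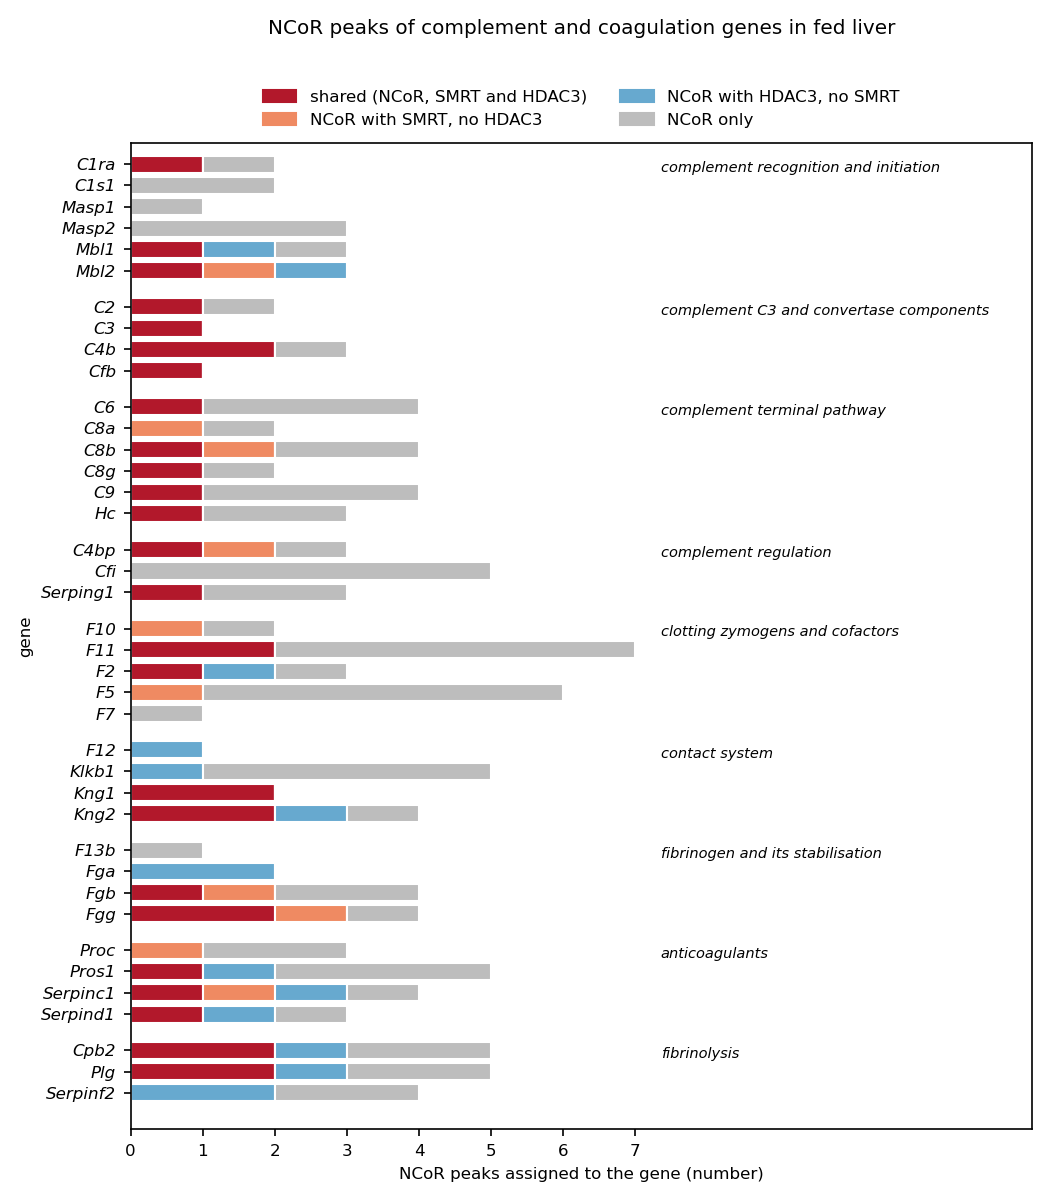
The horizontal axis counts the NCoR peaks assigned to each of the 39 genes, which are grouped by role, and colours split them by the partners within 200 bp. The counts run from 1 to 7, with F11 the highest, and the 4 genes of the C3 and convertase group each have a red segment, a shared site.

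Shared sites lay at the promoter of each gene of the C3 and convertase group. C3 itself, the component that every complement route cuts, had 1 NCoR peak, and it was a shared site 177 bp upstream of the start site (chr17:57228199-57228427). C2 and C4b, which together form the convertase of the classical and lectin routes, had shared sites 75 bp (chr17:34882061-34882289) and 76 bp (chr17:34743844-34744072) upstream. Cfb, the factor B protease of the alternative route, had its single NCoR peak as a shared site 127 bp upstream (chr17:34862531-34862759), in a promoter that overlaps the last exon of its neighbour C2. The 4 genes held 7 NCoR peaks with 5 shared sites. C4b had a further shared site 15743 bp downstream of its start site.

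C4b, Cfb and C2 lie together on chromosome 17 within 169.9 kb, in the class III region of the major histocompatibility complex. Of their 6 NCoR peaks 4 were shared sites. C4b has a close paralogue in the mouse, and since only reads with 1 place in the genome were kept, sites in stretches that the copies share can be missed.

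Recognition and initiation genes had shared sites at 3 of 6 genes, all away from their promoters. The own promoter held 5.63% of shared sites over all NCoR peaks and 34.4% of those at members. The complement regulation and fibrinogen groups also had none at a promoter. The 6 genes, for the mannose-binding lectins Mbl1 and Mbl2, their proteases Masp1 and Masp2 and the C1 proteases C1ra and C1s1, held 14 NCoR peaks with 3 shared sites. These were in an intron of C1ra 5600 bp from its start site, 9450 bp downstream of the Mbl1 start site, and 3238 bp upstream of Mbl2. Masp1, Masp2 and C1s1 had 1, 3 and 2 NCoR peaks, and no SMRT or HDAC3 peak. The Masp1 peak lay 42568 bp upstream of its start site, within another gene. C1ra and C1s1 are neighbours on chromosome 6 and together had 4 NCoR peaks, 1 of them shared.

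Terminal pathway genes, whose products build the membrane pore, held 19 NCoR peaks with 5 shared sites, at 5 of 6 genes. C6 had a shared site 54 bp upstream of its start site (chr15:4727007-4727235) and C9, the component that forms the ring of the pore, 100 bp upstream (chr15:6445113-6445341). Each of the 2 had 3 further NCoR peaks, and all 6 were NCoR-only. Hc, the gene of C5, had its shared site 2356 bp upstream, and C8g 308 bp downstream in its untranslated region. C8a and C8b are neighbours on chromosome 4 with 6 NCoR peaks, of which the promoter peak of C8a (135 bp upstream) had SMRT without HDAC3 and the only shared site lay 37876 bp from the C8b start site.

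Among the complement regulators, Cfi, the factor I protease that inactivates C3b and C4b, had 5 NCoR peaks in a territory of 23.6 kb, and all were NCoR-only. In its territory decile 99.0% of genes had fewer. Serping1, the C1 inhibitor, had a shared site 12346 bp downstream of its start site. C4bp, which helps factor I act on C4b, had 1 at 17115 bp upstream, within another gene, and an NCoR-only peak at its promoter.

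Clotting zymogens and cofactors held 19 NCoR peaks at 5 genes, of which 13 were NCoR-only and 3 shared. Each of the 5 had NCoR at its promoter. F11, the factor XI gene, was assigned 7 NCoR peaks, the highest number among members, with shared sites in its intron 8691 bp (chr8:45253226-45253454) and beyond its end 22580 bp (chr8:45239337-45239565) from the start site. Its peaks 5299 and 16142 bp upstream lay within the neighbouring gene Klkb1 and counted for F11 only because its start site was nearest. F5, the cofactor of the enzyme that makes thrombin, had 6 NCoR peaks and no shared site. F2, for prothrombin, had a shared site 769 bp upstream (chr2:91637069-91637297) and an NCoR-only peak 65 bp upstream, so that 2 peaks of different class lay in its promoter. F7 and F10, neighbours on chromosome 8, had 3 NCoR peaks and no shared site, and the peak 632 bp upstream of an F10 start site had SMRT without HDAC3.

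F11 and Klkb1, the prekallikrein gene, are homologous and lie side by side on chromosome 8. They held 12 NCoR peaks, 9 of them NCoR-only. The Klkb1 promoter peak, 4 bp from the start site, had HDAC3 without SMRT, and the F11 promoter peak, 109 bp upstream, had neither.

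In the contact system, shared sites came in pairs at the kininogen genes. Kng1 and Kng2, the kininogens that bradykinin is cut from, point away from each other on chromosome 16, and each had a shared site at its promoter, 62 bp (chr16:23058074-23058302) and 72 bp (chr16:23029059-23029287) upstream. Each also had a second shared site farther upstream, at 1884 bp (chr16:23056252-23056480) and 2055 bp (chr16:23031042-23031270), in the stretch between the genes. The windows of 200 bp centred on these outer sites were identical in 50.7% of 213 aligned columns, against 87.0% of 154 for the promoter windows. Each outer window was placed on its own peak centre, so a like stretch lying elsewhere between the genes could be missed. F12, the factor XII gene, had 1 NCoR peak 2614 bp upstream, with HDAC3 at 2 bp and no SMRT.

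**Figure D4:**
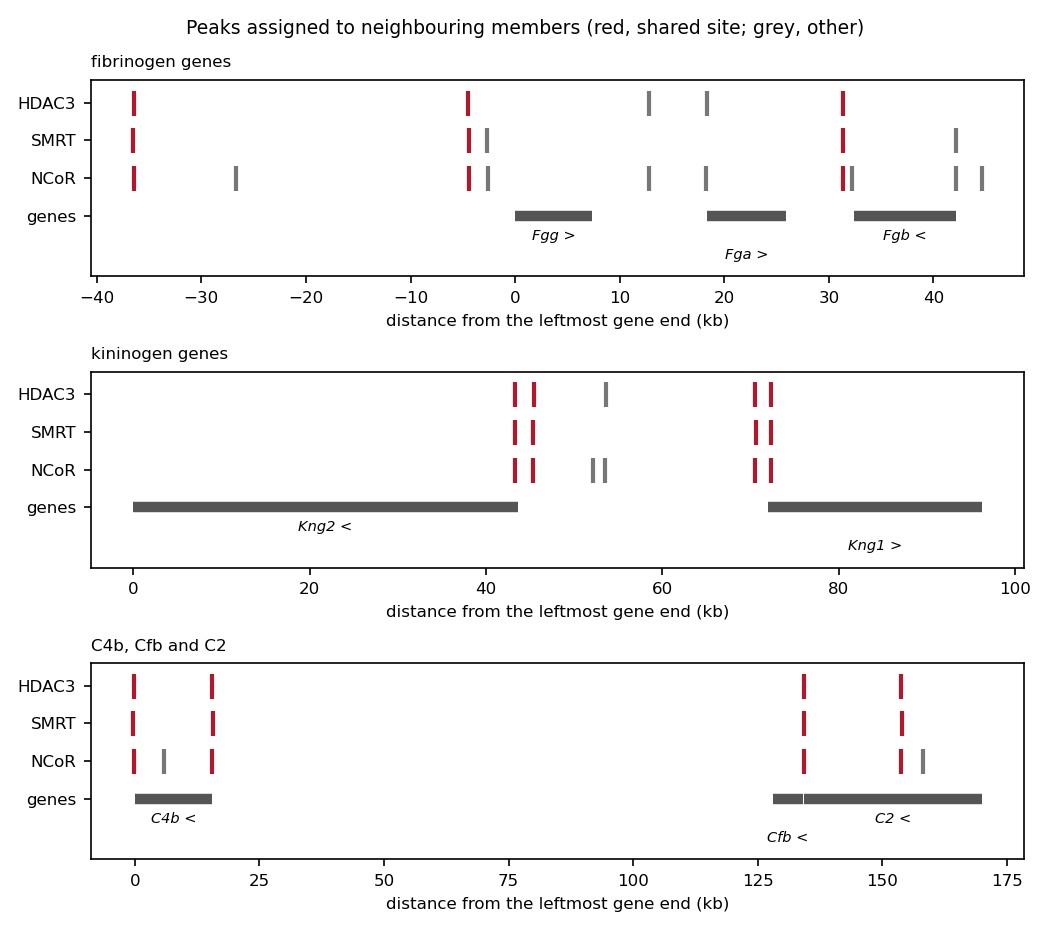
Peaks of the 3 lists (vertical marks) are drawn along the fibrinogen, kininogen and C4b, Cfb and C2 loci, with distance in kb from the leftmost gene end and genes as bars (> and < give the strand). Marks at shared sites are red and the others grey, and the 4 shared sites between and at the start sites of Kng2 and Kng1 form mirror pairs by position.

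Fibrinogen is built from the products of Fga, Fgb and Fgg, which lie within 42.1 kb on chromosome 3. They held 10 NCoR peaks, of which 3 were shared, 2 had SMRT only, 2 HDAC3 only and 3 neither. The Fga promoter peak (60 bp upstream, chr3:83025902-83026130) had an HDAC3 centre at 17 bp and no SMRT peak nearer than 13097 bp, and the other Fga peak, 5554 bp upstream, was of the same kind. The Fgb promoter peak (59 bp upstream, chr3:83049808-83050036) had a SMRT centre at 22 bp and no HDAC3 peak nearer than 10824 bp. Fgg had no promoter peak, and its shared sites lay 4427 bp (chr3:83003183-83003411) and 36454 bp (chr3:82971156-82971384) upstream, within another gene. The third shared site of the locus, 10771 bp from the Fgb start site, was downstream of Fgb. Without a signal height, an absent partner and one below the calling threshold cannot be told apart. F13b, the carrier subunit of the clot-stabilising factor XIII, had 1 NCoR-only peak, 219 bp upstream.

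Anticoagulant genes held 15 NCoR peaks with 3 shared sites, at Serpind1, Serpinc1 and Pros1. Serpind1, the heparin cofactor II gene, had its shared site 40 bp upstream of the start site (chr16:17331217-17331445). Serpinc1, for antithrombin, had all 4 kinds of NCoR peak, with the shared site in an intron 8727 bp from the start site. Pros1, the protein S gene, had 5 NCoR peaks spread over the longest territory of the members, 508.5 kb, with 1 shared in an intron. Proc, for protein C, had 2 promoter peaks at different start sites, of which 1 had SMRT without HDAC3 and 1 was NCoR-only, and no HDAC3 peak.

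Fibrinolysis genes held 14 NCoR peaks and 8 HDAC3 peaks at 3 genes. This HDAC3 count was the highest of the 9 role groups by a small margin. The contact system had 7 HDAC3 peaks and the anticoagulants 6, at 4 genes each. Plg, the plasminogen gene, had shared sites 12 bp upstream of the start site (chr17:12378482-12378710) and 1941 bp into its intron (chr17:12380435-12380663). Cpb2, whose product slows clot lysis, had shared sites 9061 bp upstream (chr14:75233112-75233340) and 8315 bp downstream in an intron (chr14:75250488-75250716), and a promoter peak with HDAC3 and no SMRT. Serpinf2, the plasmin inhibitor, had 4 NCoR peaks without a shared site, 2 of them with HDAC3 only.

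The 14 members with peaks but no shared site were C1s1, C8a, Cfi, Masp1, Masp2, F5, F7, F10, F12, F13b, Fga, Serpinf2, Proc and Klkb1. Of these C1s1, Cfi, Masp1, Masp2, F7 and F13b, 6 in all, had neither a SMRT nor an HDAC3 peak. No member was without a peak of any list.

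Motif strings were counted in the central 200 bp of each NCoR peak, on both strands and with overlapping matches allowed between motifs. C/EBP (TTNNGCAA) was the most frequent, in 32 of 122 member peaks (26.2%, 18.7 to 35.0) at 22 genes, against 19.1% of all 35138 NCoR peaks. The string of BCL6 and STAT factors (TTCNNNGAA) was in 14 (11.5%, 6.42 to 18.5), against 7.07%. HNF4 (CAAAGTNCA) was in 8 against 5.48%, FOX (TGTTTAC) in 10 against 7.74%, HNF6 and CUX2 (TATNGAT) in 8 against 8.41%, HNF1 (GTTAATNAT) in 3 against 1.63%, and CTCF in 1 against 1.20% of all peaks. ETS (CCGGAAGT) was in 0 of 122 (0 to 2.98) against 0.754%. The share over all peaks lay inside the members' interval for each of these motifs, near its lower end for C/EBP and for BCL6 or STAT. In windows of 100 bp this no longer held for C/EBP, found in 23 of 122 member peaks (18.9%, 12.3 to 26.9) and in 12% of all NCoR peaks (11.7 to 12.3), below the members' interval. The 119 NCoR peaks of the other plasma protein genes held C/EBP in 30.3% at 200 bp and 19.3% at 100 bp. BCL6 or STAT was in 11.8% of them at 200 bp. None of these shares was below that of the members.

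Among promoter peaks, C/EBP matches were found in 9 of the 34 NCoR peaks at members' own promoters (26.5%, 12.9 to 44.4), against 10.9% (9.87 to 12) of the 3510 such peaks of all genes. ETS was in 0 of 34 (0 to 10.3), where 4.64% of all promoter NCoR peaks had it. The Fga promoter peak held HNF1, C/EBP and BCL6 or STAT strings together.

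The promoter sequences themselves, taken from RefSeq for GRCm38.p6 as 250 bases before to 50 after a start site, could be matched for 30 of the 39 members and for 17492 protein-coding genes. HNF1 was present in 4 of the 30 (13.3%, 3.76 to 30.7), at C4bp, F13b, Fga and Hc, against 0.863% of genes, and C/EBP in 11 (36.7%, 19.9 to 56.1) against 11.7%. Plg and Kng1, whose windows shown above held an HNF1 and a C/EBP match, were not among the genes counted for these motifs. A member not counted here may therefore still hold a match near a start site. The BCL6 or STAT string was in 6 (interval 7.71% to 38.6%) against 8.92%, and ETS in 0 (0 to 11.6) against 5.69%. Shares of HNF6 or CUX2 (13.3% against 5.11%), FOX (6.67% against 3.45%), HNF4 (3.33% against 1.53%) and CTCF (3.33% against 2.75%) had intervals that took in the genome's value. A match of letters is a description of the sequence and not evidence of a bound factor.

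**Figure D5:**
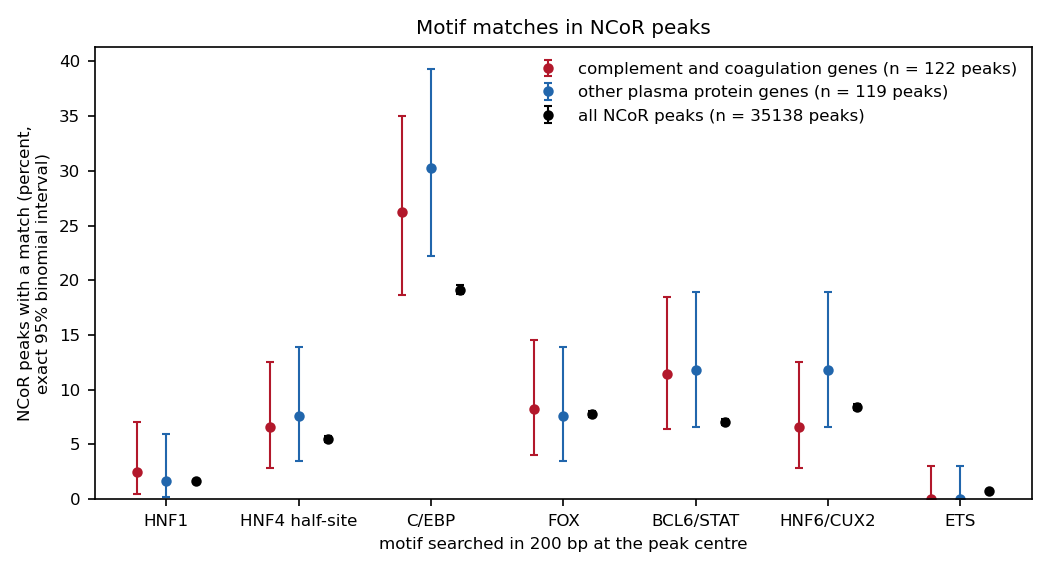
The vertical axis is the percent of NCoR peaks with a match in the central 200 bp and the horizontal axis the motif, for 122 peaks of complement and coagulation genes (red), 119 of other plasma protein genes (blue) and all 35138 NCoR peaks (black), with exact 95% binomial intervals. C/EBP is the highest point of each colour, and no ETS match was found in the red or blue peaks.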

How the data were processed

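Livers were crosslinked with disuccinimidyl glutarate and formaldehyde, and the 75 bp single-end reads were aligned by the authors to mm10 with Bowtie, keeping reads with a single place in the genome. Peaks were called by the authors with HOMER on 3 pooled libraries against input and kept at 2-fold and a false discovery rate of 0.05 by DESeq2. The deposited lists give chromosome, start and end alone (212 bp long for SMRT and HDAC3, 228 bp for NCoR), with no score or count, so depth and replicate error could not be used.

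Peak centres were assigned to the nearest TSS of protein-coding transcripts in the GENCODE basic annotation of GRCm38 (mm10) and classed by partners within 200 bp. Coordinates of peaks are as the lists give them. Computation used Python 3.11.15, pandas 2.3.3, scipy 1.17.1 and pysam 0.24.0, and was tested on simulated peaks. Intervals are Clopper-Pearson. Members, gene lists and tests were chosen with earlier results of these data known.

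All 39 members were counted. Named with values were the 10 members holding the largest numbers of shared sites (ties by symbol), those with a shared promoter site, neighbours within 200 kb, and the 3 genes of each other list with the most shared sites. Members without a shared site were given by counts, and other members and the fibrinogen sequences were added after their values were seen. Of 50 other pathway genes 49 could be matched, and of 34 other plasma protein genes 33. Some genes that the naming rule would give are not reported here.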

Additional observations from a re-analysis of the deposited data

How the results depend on the processing

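The counts of members with an NCoR peak and with a shared site, the shares of shared and NCoR-only sites, and both Fisher tests were recomputed with centres within 100 or 400 bp, with 1 start site a gene, among all annotated genes, with peaks within 50 kb only and, for promoter location, with promoters of 5000 bp on either side. The promoter test with 1 start site a gene, among all annotated genes and within 50 kb, and the test of complement against coagulation among all annotated genes, were added after seeing the data. Members with a shared site ranged from 23 to 25 and members with an NCoR peak from 38 to 39, and neither test gave a p under 0.05 in any of these settings. Only 1 setting moved a count by more than 1.5 times. With the NCoR list randomly thinned to as many peaks as SMRT had, 25 of 39 members had an NCoR peak and 7 a shared site, against 27.5% and 9.34% of all protein-coding genes in the same thinned list, since fewer peaks were left. The exact interval for 25 of 39 is 47.2 to 78.8%, above the share of all genes. For 7 of 39 it is 7.54 to 33.5%, which takes in the 9.34%. Of the motif shares in 100 bp windows, BCL6 or STAT fell to 4.92% and CTCF to 0, as less sequence was searched, and the C/EBP share over all NCoR peaks, 12%, then fell below the members' interval (12.3 to 26.9). A stricter peak threshold was not run for lack of scores. No paired analysis was possible because the 3 libraries of a cofactor entered 1 list, and for the same reason no replicate could be left out. Depth was not given, so an absent peak may be a missed one.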

Other observations

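Other genes of the complement and clotting pathways, many of them made by cells other than hepatocytes or acting as receptors, held sites at a smaller share of genes than the members did and at a larger share than all protein-coding genes. Of 49 such genes, 33 had an NCoR peak (67.3%, 52.5 to 80.1, against 49.2% of all genes), 19 a shared site (38.8%, 25.2 to 53.8, against 21.0%) and 15 an NCoR peak at the own promoter (30.6%, 18.3 to 45.4, against 15.2%). The territory deciles gave 24.7, 10.7 and 7.56 genes. F2rl3, a thrombin receptor gene, had 3 shared sites, the nearest NCoR peak being 255996 bp from its start site. No peak of any list was assigned to 16 genes. Genes known from macrophages were found on both sides, since C1qa, C1qb and C1qc, the chains of C1q, had no peak, while Fcna, a ficolin gene, had a shared site at its own promoter and C5ar1, a C5a receptor gene, had 2 NCoR-only peaks. These genes were named after their values were seen. Of the other plasma protein genes, Saa2 alone had no peak. It closely resembles Saa1, and reads with more than 1 place in the genome were dropped by the authors, whose part in this was not tested.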
